A study of Canis lupus familiaris with 14 samples.

Results

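Short single-exon genes at 6 positions of the dog genome were followed in whole blood RNA: 3 on chromosome 8 (starts 26223712, 26412228 and 26422921), 2 on chromosome X (47858801 and 89603324) and 1 on chromosome 24 (5091561). They are 6 of the 30951 genes in the table of raw counts. Libraries were made from 7 dogs labelled lymphoma, a malignancy of lymphocytes, and from 7 dogs labelled non-lymphoma and control, which the series describes as having another disease. They are called lymphoma and control libraries below. The labels give no breed, age, sex, treatment or lymphoma type, and name no separate cell fraction, so the libraries hold the RNA of all blood cells together. Each library is its own sample in the labels, which say no more about the animals, so the spread between libraries may be biological or technical.

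The 6 genes were chosen by their higher counts in lymphoma than in control libraries of this same table, together with their size and exon structure. Their differences between the groups are therefore given as a description, with no p-value, and nothing is read from the number of them that an analysis of all genes called. What the choice did not fix, such as how the genes vary among libraries of one group, is tested where the design allows.

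The genes were proposed as resembling 7SL RNA, the RNA scaffold of the signal recognition particle. This particle binds signal peptides as they leave the ribosome and brings the ribosome to the endoplasmic reticulum, where secreted and membrane proteins are made. 7SL RNA is transcribed by RNA polymerase III, is among the most abundant small noncoding RNAs of a cell, and has left many shortened copies scattered through mammalian genomes. Antibody-secreting cells of the B lineage depend heavily on this route.

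The data bear on that name only in part. The chromosome 8 genes are 300 bases long each, those on X 295 and 283 bases, and the one on chromosome 24 is 238 bases, shorter than the others. In the RefSeq gene table of the assembly UU_Cfam_GSD_1.0, 1 gene is annotated as signal recognition particle RNA, RN7SL1, with 299 bases on chromosome 8 between RPS29 and LRR1. Positions were not compared between that assembly and CanFam3.1, on which the counts are based, and none of the table's identifiers could be paired with a symbol. The sequences of the 6 genes were not used here. They are called below by their position, and no function is assigned to them.

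In CanFam3.1 the first chromosome 8 gene runs from 26223712 to 26224011 on the plus strand. The second runs from 26412228 to 26412527 and the third from 26422921 to 26423220, both on the minus strand and 10.4 kb apart. They are listed as ENSCAFG00000032696 and ENSCAFG00000032163. The first X gene runs from 47858801 to 47859095 and the second from 89603324 to 89603606, both on the minus strand and 41.7 Mb apart. The chromosome 24 gene runs from 5091561 to 5091798 on the plus strand, inside an intron of a multi-exon gene of the same strand. It overlaps none of that gene's exons, and the other 5 genes overlap no annotated gene.

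Total counts ranged from 9845059 to 14831589 in lymphoma and from 13522628 to 21610927 in control libraries. Levels are given as CPM, a gene's counts for each 1000000 counts of its library, and levels of different genes are compared as CPM per kilobase of exon. Control replicate 2 stood apart from its group for the second and the third chromosome 8 genes, and values that rest on it are given with and without it. Thinned to the smallest library's total, it had 16289 genes with a count, against 18116 to 22964 in the other control and 14733 to 17866 in the lymphoma libraries. The part of these library differences in the values below was not tested.

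The second and the third chromosome 8 genes held most of the counts of the 6 in lymphoma, 33.1 ± 11.2% and 62.8 ± 12.8% of them (SD over 7 libraries each). Together the 6 genes took 3.31 ± 2.93% of all counts in lymphoma and 0.0538 ± 0.109% in control libraries (SD over 7 libraries each). Without control replicate 2 the latter share was 0.0126 ± 0.00348% (SD, n = 6). The lymphoma shares ran from 0.425% through a median of 2.18% to 7.78%, and the control shares from 0.0085% through 0.0127% to 0.301%. The groups did not overlap, and the lowest share among lymphoma libraries was 1.41 times the highest among control libraries. In whole blood, more cells of a type and more RNA per cell cannot be told apart.

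On the log2 scale the summed CPM was 14.40 ± 1.58 in lymphoma and 7.59 ± 1.78 in control blood (SD over 7 libraries each), so the geometric means differed 112-fold. When control replicate 2 was left out the control value was 6.93 ± 0.39 (SD, n = 6), the difference 176-fold, and the lowest lymphoma library 23.6 times the highest control library. The 3 genes outside chromosome 8 had lower sums and a smaller difference, 7.94 ± 0.61 against 3.01 ± 0.73 (SD over 7 libraries each), or 30.3-fold (32.9-fold without control replicate 2). Among lymphoma libraries their spread was also smaller, and the lowest lymphoma value was 8.89 times the highest control value.

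The third chromosome 8 gene, starting at 26422921, was the most abundant of the 6 in lymphoma. Its level ran from 2370 through a median of 15028 to 51077 CPM in lymphoma and from 18.5 through 43.9 to 2501 CPM in control libraries. The highest control value belongs to replicate 2, and 6 of 7 lymphoma libraries lay above it, so the groups overlapped by 1 lymphoma library, replicate 1. Without control replicate 2 the highest control value was 67.2 CPM and every lymphoma library was at least 35.3 times higher. The gene ranked from 3 to 18 among all genes of a lymphoma library, with a median rank of 5, and from 22 to 5580 in a control library, with a median rank of 3190.

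The log2 fold change of the third gene in edgeR's fit was 5.89 (SE 1.41). It depends on 1 library: without control replicate 2 it was 9.45.

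The second gene, starting at 26412228, ran from 813 through a median of 8518 to 25995 CPM in lymphoma and from 9.44 through 48.4 to 445 CPM in control libraries. The groups did not overlap, with the lowest lymphoma library 1.82 times the highest control library, again replicate 2, and 5.5 times the next one. Its log2 fold change was 6.72 (SE 1.07, and 7.92 without control replicate 2).

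The first gene, starting at 26223712, had a much lower and steadier level in lymphoma. It ran from 212 through a median of 288 to 522 CPM in lymphoma and from 3.43 through 11.4 to 51.5 CPM in control libraries, with no overlap and a gap of 4.11 times. The control libraries spread widely: replicates 1, 2 and 3 had 773, 812 and 1112 counts, and replicates 4 to 7 had 73, 182, 82 and 54. Its log2 fold change was 3.94 (SE 0.67), the smallest of the 6.

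The X genes were low in every library and nearly unseen in control blood. The first, starting at 47858801, had 69 to 174 counts in lymphoma libraries, or 6.80 through a median of 11.3 to 15.6 CPM. In control libraries it had 0 to 6 counts, with 14 counts over all 7. Its count was 0 in control replicates 1, 5 and 6, where 3 counts, the limit that a count of 0 allows, would be 0.173, 0.188 and 0.189 CPM. The lowest lymphoma library was 22.3 times the highest control one, with a log2 fold change of 6.68 (SE 0.61) that rests on the 14 control counts.

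The second X gene, starting at 89603324, had between 146 and 377 counts in the lymphoma and between 1 and 29 in the control libraries. Its level ran from 14.4 through 21.1 to 38.3 CPM in lymphoma and from 0.074 through 0.694 to 1.76 CPM in control libraries, without overlap and with a gap of 8.15 times (14.3 without control replicate 2). Its log2 fold change was 5.19 (SE 0.52).

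The chromosome 24 gene, starting at 5091561, ran from 91.5 through a median of 198 to 388 CPM in lymphoma and from 2.32 through 8.21 to 13.5 CPM in control libraries. The groups did not overlap, with a gap of 6.79 times, and the log2 fold change was 5.04 (SE 0.39). The multi-exon gene that holds it in an intron had 56.0 ± 25.2 CPM in lymphoma and 58.7 ± 20.9 CPM in control blood (SD over 7 libraries each). The log2 fold change of that multi-exon gene was 0.12 (SE 0.22, adjusted p = 0.74 in the edgeR test).

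**Figure D1:**
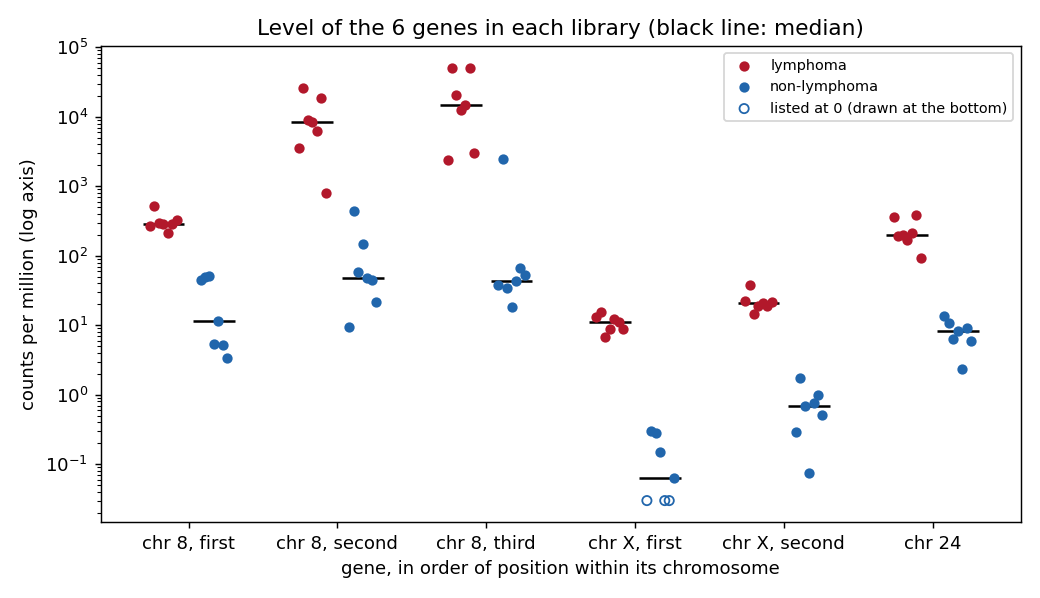
Level of each gene in CPM (log axis) in 7 lymphoma and 7 control libraries; each point is a library, black lines are medians, and open circles are libraries with a count of 0, drawn at the bottom. Only the third chromosome 8 gene has a control library, at 2501 CPM, above a lymphoma library, at 2370 CPM.

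All 6 genes passed the filter on low counts, and all 6 were called higher in lymphoma (edgeR quasi-likelihood test, adjusted p under 0.05), where 9.21% of the 12836 tested genes were called higher and 16.6% were called in either direction. CPM did not overlap between the groups for 5 of the 6, and for 0.982% of all tested genes. Both counts follow from how the genes were chosen. With control replicate 2 left out, CPM overlapped for 0 of the 6. The share of all tested genes without overlap was not computed for that subset, so nothing is read from this count. The median log2 fold change of the 6 was 5.54, where that of all tested genes was -0.05, and their log2 fold changes ranked from 5 to 18 among the 12836. Sample numbers in the labels have 5 digits for every control library and for lymphoma replicates 5 and 6, and the labels do not say what this form marks. Within these 9 libraries only 0.713% of the 14580 tested genes were called in either direction, so most calls of any gene were lost. There the first and the third chromosome 8 genes were no longer called, with log2 fold changes of 3.46 and 6.29, while the other 4 were called. There the summed level of the 6 differed by 7.66 on the log2 scale.

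Per kilobase, the X genes had the lowest levels in both groups, and the order of the others was less settled. In lymphoma the medians were 50092 CPM per kilobase for the third chromosome 8 gene, 28393 for the second, 959 for the first, 833 for the chromosome 24 gene, and 74.4 and 38.4 for the second and first X genes. The third gene exceeded the second in 6 of 7 libraries, and both exceeded the remaining genes in all 7. The first chromosome 8 gene exceeded the chromosome 24 gene in only 4 of 7, so those neighbours did not differ beyond their spread.

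The upper ranks were less settled in control blood. The medians were 161 CPM per kilobase for the second chromosome 8 gene, 146 for the third, 38.0 for the first, 34.5 for the chromosome 24 gene and 2.45 and 0.215 for the second and first X genes. The second gene exceeded the third in 3 of 7 libraries and the third exceeded the first in 5 of 7. The first exceeded the chromosome 24 gene in 4 of 7, so neighbours in the order of these 4 genes did not differ beyond their spread. The chromosome 24 gene exceeded the second X gene in 7 of 7, and the second X gene the first in 6 of 7.

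The gene with the most counts of the 6, called the leading gene, was not the same one in each library. In lymphoma the leading gene took 65.5 ± 6.71% of the 6 genes' counts (SD, n = 7), from 54.3 to 72.5%. The third chromosome 8 gene led in 6 lymphoma libraries and the second in replicate 1, where it held 54.3% (exact 95% binomial interval 54.0 to 54.7%, which covers counting error only). In control libraries the leading gene took 58.1 ± 18.5% (SD, n = 7), from 38.5 to 83.1%, a wider range.

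Which gene led differed more among the control libraries. The third gene led in 3 of them, replicates 2, 6 and 7, the second in replicates 3, 4 and 5, and the first in replicate 1. In replicate 4 the second gene held 82.1% of the counts (exact 95% interval 80.5 to 83.6%), and in replicate 2 the third gene held 83.1% (82.8 to 83.5%). Elsewhere the lead was small. In replicate 5 the second gene held 45.3% (43.0 to 47.7%) and the third 41.1% (38.8 to 43.5%), intervals that overlap. In replicate 1 the first gene held 42.1% and the third 35.9%, and in replicate 3 the second held 38.5% and the first 34.0%. The share of the third gene in control replicate 2 was above that in every lymphoma library. The sequences of the copies were not compared. The counting command in the table's header does not ask for multi-mapping reads, which featureCounts by default leaves uncounted, so reads that fit several copies equally well may be missing from these values.

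**Figure D2:**
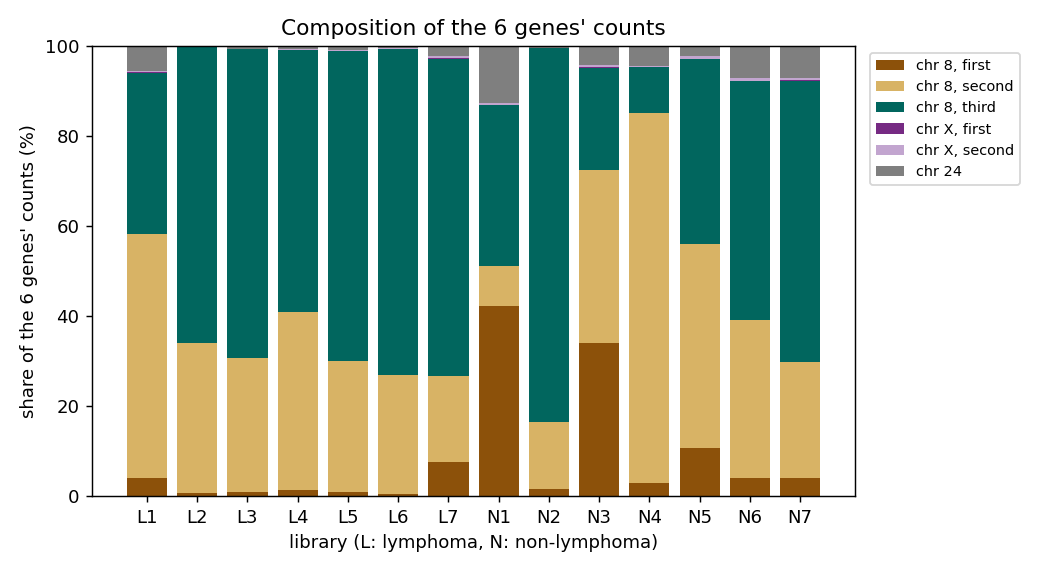
Share of each gene in the counts of all 6 (percent, vertical axis) in each library, L for lymphoma and N for control with the replicate number. The third chromosome 8 gene leads in L2 to L7 and in N2, N6 and N7, while the first holds 42.1% in N1.

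The ratio of the third to the second chromosome 8 gene was 2.17 ± 0.95 in lymphoma and 2.17 ± 2.00 in control libraries (SD over 7 libraries each). It ran from 0.656 to 3.67 in lymphoma and from 0.125 to 5.62 in control libraries. Without control replicate 2 the control ratio was 1.60 ± 1.43 (SD, n = 6), with a highest value of 4.01. The ratio of the third to the first gene ranged from 8.94 to 175 in lymphoma and from 0.668 to 50.6 in control libraries, with 15.5 the highest without control replicate 2. The 2 neighbouring genes on the minus strand thus kept a narrower ratio to each other in lymphoma than either kept to the first gene, since the ratio of the second to the first ran from 2.52 to 64.2.

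Spread within a group separated the genes in a way that the choice by group did not use. In lymphoma the SD of log2 CPM was 1.65 for the second and 1.77 for the third chromosome 8 gene, above 97.7% and 98.4% of all tested genes, whose median was 0.62. The first gene had an SD of 0.40 and the X genes 0.40 and 0.43, above 18.1%, 18.9% and 21.9% of tested genes, so they were steadier than most genes of these libraries. The chromosome 24 gene lay between, with 0.70.

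In control blood the picture for the first gene was different. Its SD was 1.70, above 99.1% of tested genes, beside 1.80 for the second and 2.33 for the third, where the median of all tested genes was 0.48. Without control replicate 2 the SDs were 1.66, 1.34 and 0.64 (n = 6), above 99.4%, 98.6% and 74.8% of tested genes, so the wide spread of the third gene rests on that library. The chromosome 24 gene had an SD of 0.80. The X genes had 0.74 and 1.02, on 0 to 6 and 1 to 29 counts a library. These are descriptions of 7 libraries each, and the difference in spread between groups was not tested.

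Co-variation among the genes was examined within each group, since the groups stand apart. Genes with a median of at least 10 counts in the group gave 15 pairs in lymphoma and 10 in control libraries, where the first X gene was left out. Pearson's r of log2 CPM was above 0 in 22 of the 25 pairs. The pairs share genes, libraries and total counts, and the share among other genes was not computed, so nothing is read from this count. After Benjamini-Hochberg adjustment over the 25 pairs 0 passed the exact permutation test over the 5040 pairings of 7 libraries. For r 2 pairs had an unadjusted p under 0.05, and for rho 3 had.

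The closest pair in lymphoma was the second and the third chromosome 8 genes. Their r was 0.893 (two-sided exact permutation p = 0.00417, adjusted p = 0.104, n = 7) and Spearman's rho 0.929 (exact permutation p = 0.00675, adjusted p = 0.154). Lymphoma replicates 2 and 6 were the highest in both genes and replicates 1 and 7 the lowest. Without the 2 libraries farthest from the median of the second gene r was 0.949.

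In control blood the relation of the same 2 genes rested on few libraries. There r was 0.621 (exact permutation p = 0.182, adjusted p = 0.799, n = 7) and rho 0 (exact p = 1). Without the 2 libraries farthest from the median r was -0.852, and replicate 2 is one of those left out. In the other 6 libraries the one with the most of the second gene, replicate 4 with 1998 counts, had the least of the third, 250 counts.

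The X genes formed the other lymphoma pair with an unadjusted p under 0.05. In lymphoma r was 0.84 (exact permutation p = 0.0139, adjusted p = 0.174, n = 7) and rho 0.893 (exact p = 0.0123, adjusted p = 0.154). Without the 2 libraries farthest from the median of the first X gene r was 0.404. Leaving them out also narrows the range of that gene, so this cannot show whether the relation rests on them. On TMM-scaled library sizes r was 0.941 (exact permutation p = 0.000198, the smallest the pairings can give, adjusted p = 0.00496), and this was then the 1 pair of 25 that passed. In control blood the third chromosome 8 gene and the second X gene had a rho of 0.821 (exact permutation p = 0.0341, adjusted p = 0.284, n = 7) and r of 0.761 (exact permutation p = 0.0558, adjusted p = 0.465), which was 0.524 without the 2 libraries farthest from the median.

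No relation of the first chromosome 8 gene with the other 2 passed the test in lymphoma. Its r was 0.337 with the second (exact permutation p = 0.424, adjusted p = 0.799) and 0.372 with the third (exact permutation p = 0.421, adjusted p = 0.799, n = 7 each). The level of the first gene changed by at most 2.47 times between lymphoma libraries, while those of the second and the third changed by 32.0 and 21.5 times. The chromosome 24 gene had r of 0.546 with the second and 0.269 with the third in lymphoma, with adjusted exact permutation p = 0.799 for both.

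**Figure D3:**
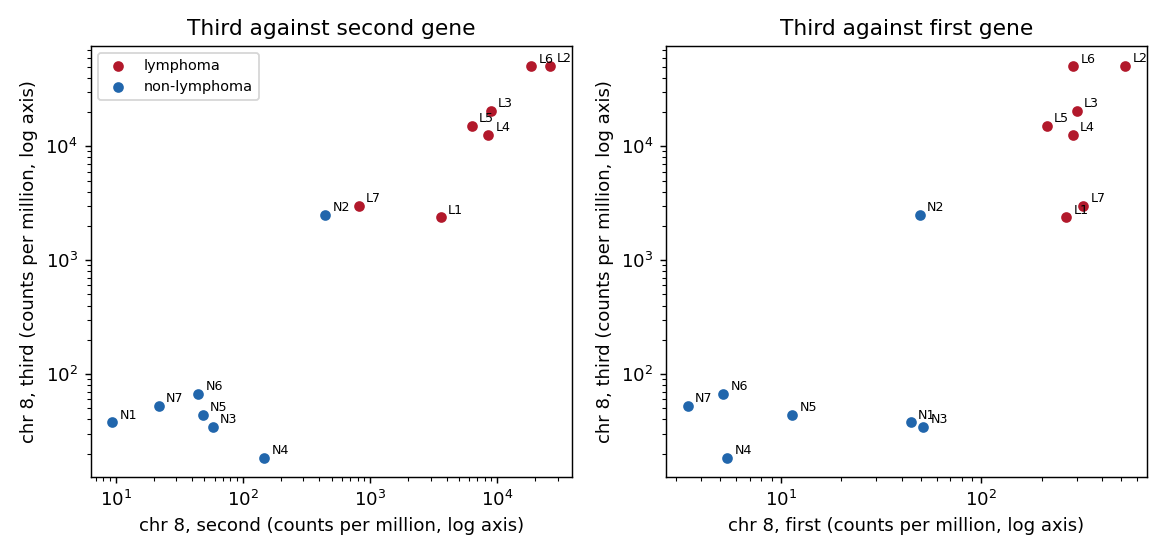
Level of the third chromosome 8 gene against the second (left) and the first (right), in CPM on log axes; each point is a library, named by group letter and replicate. In lymphoma the second and the third genes rank alike (rho 0.929), while the first stays between 212 and 522 CPM across the whole range of the third.

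No library measure examined followed the level of the 6 genes in a test that passed. The log2 summed CPM was compared with total count, genes with a count after thinning, mitochondrial share and the share of single-exon genes under 200 bases, within each group. Of these 8 relations 0 passed after adjustment, and for r 1 had an unadjusted p under 0.05. It was the number of genes after thinning in control blood, with r of -0.757 (exact permutation p = 0.0442, adjusted p = 0.275, n = 7) and rho of -0.536 (exact p = 0.236, adjusted p = 0.629). Without the 2 farthest libraries r was 0.438, of the other sign, over fewer libraries and a narrower range. By rho the only unadjusted p under 0.05 was that of the mitochondrial share in control blood (rho 0.786, exact permutation p = 0.048, adjusted p = 0.384), whose r was 0.272 (exact permutation p = 0.425, adjusted p = 0.852, n = 7). In lymphoma the number of genes after thinning had r of -0.227 (exact permutation p = 0.636, adjusted p = 0.852, n = 7).

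Genes beside the 6 differed little between the groups. On chromosome 8, a multi-exon gene at 26217756 to 26223542 ends 169 bases before the first gene, on the other strand. It had 273 ± 95.6 CPM in lymphoma and 328 ± 102 CPM in control blood (SD over 7 libraries each), with a log2 fold change of -0.09 (SE 0.25, adjusted p = 0.83 in the edgeR test). A gene at 26364838 to 26411424 ends 803 bases before the second gene, with a log2 fold change of 0.49 (SE 0.19, adjusted p = 0.0762 in the edgeR test). The next tested gene after the third, at 26445647 to 26525530 and 22.4 kb away, had a log2 fold change of -0.66 with SE 0.22 and an edgeR adjusted p of 0.0484. Leaving out 1 library ended that call in 11 of 14 runs. It held only without lymphoma replicate 6 or control replicate 3 or 4, and the highest edgeR adjusted p was 0.102.

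Around the X genes, the nearest tested genes lay 114 to 2520 kb away and none passed the test, with log2 fold changes from -0.64 to 0.97. The same held on chromosome 24, where the tested genes before and after had log2 fold changes of 0.56 and -0.59 (adjusted p = 0.237 and 0.22 in the edgeR test). Every neighbour examined thus differed by less than 1 on the log2 scale. The 6 genes differed by at least 3.94, but they were chosen as higher in lymphoma, so this contrast follows in part from the choice.

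Other single-exon genes of about the same size were called in a share close to that of all tested genes. The table holds 209 such genes within 10% of 300 bases, from 270 to 330, with the 6 left out. Of the 54 that could be tested 4 were higher and 5 lower in lymphoma, or 16.7% called beside 16.6% of all tested genes. Their median log2 fold change was -0.09, and that of all tested genes was -0.05. Leaving out genes chosen as higher lowers what remains. The chromosome 24 gene, with 238 bases, is shorter than every gene of this list, so the list does not match its size. DESeq2 called 14 of the 54, 7 in each direction, or 25.9% beside 24.8% of all tested genes. Within the libraries with 5-digit numbers 84 genes of this size were tested and 1 was called, or 1.19% beside 0.713%.

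The genes of this size with the highest level differed in direction. The first, at 52193814 to 52194086 of chromosome 11, had 1455 ± 984 CPM in lymphoma and 455 ± 331 CPM in control blood (SD over 7 libraries each; log2 fold change 1.76, SE 0.47, edgeR adjusted p = 0.0208). A gene at 38491746 to 38492073 of chromosome 27 had 642 ± 201 and 316 ± 106 CPM (SD over 7 libraries each; edgeR adjusted p = 0.00991). One at 26567413 to 26567738 of chromosome 34, of similar abundance, had 486 ± 216 and 465 ± 162 CPM (SD over 7 libraries each; edgeR adjusted p = 0.491).

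The 3 next most abundant had log2 fold changes of -0.07 (chromosome 8, 64382330), -0.87 (chromosome 15, 32647472; edgeR adjusted p = 0.002) and 0.26 (chromosome 21, 23871648). The other higher genes of the list lay on chromosome 25 at 44781182 (log2 fold change 1.80, edgeR adjusted p = 0.0119) and on chromosome 37 at 28667584. The other 4 lower ones had log2 fold changes from -3.21 to -1.45. Leaving out 1 library ended the call of 2 lower genes, in 11 of 14 runs for one on an unplaced scaffold and in 8 of 14 for one on chromosome 35 at 24121361, and of 0 among the 4 higher ones. The gene called within the libraries with 5-digit numbers was that on chromosome 37.

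**Figure D4:**
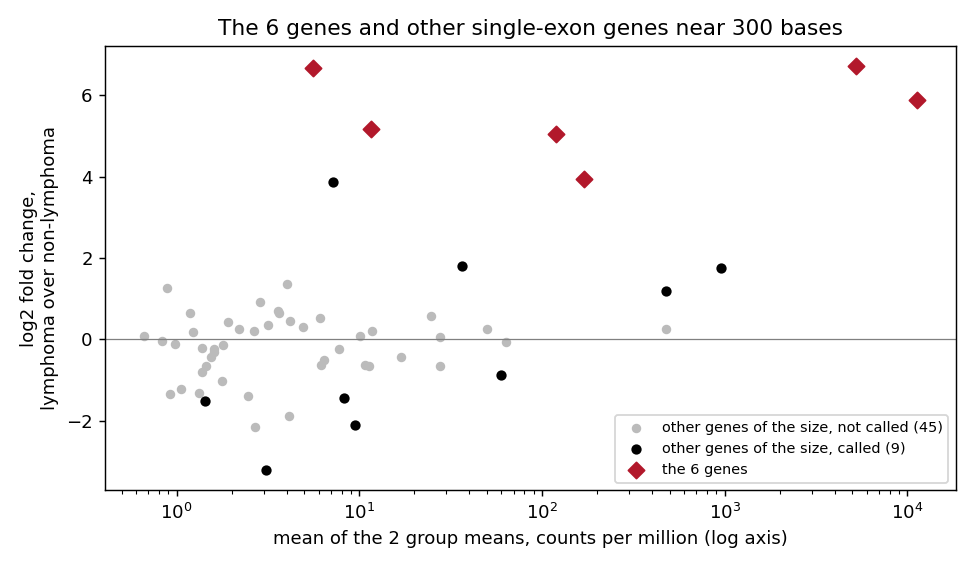
Log2 fold change of lymphoma over control against mean level (CPM, log axis) for the 6 genes (diamonds) and for 54 other tested single-exon genes within 10% of 300 bases, of which 9 were called (black) and 45 were not (grey). The 6 genes lie between 3.94 and 6.72, and the highest of the others is the chromosome 37 gene at 3.87. The 6 were chosen as higher in lymphoma, so their place above the others follows in part from that choice.

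Genes with the most similar pattern were sought among the 12830 other tested genes, as a description over 14 libraries that share depth and scaling. Without regard to group, the highest Pearson r of log2 CPM with the summed level of the 6 was 0.909, for a single-exon gene of 185 bases at 32732079 to 32732263 of chromosome 21. It had 7.62 ± 4.45 CPM in lymphoma and 0.507 ± 0.333 CPM in control blood (SD over 7 libraries each). Next came a multi-exon gene at 11443780 to 11517674 of chromosome 32 with r of 0.891.

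The third by this measure, with r of 0.89, was the 281-base single-exon gene on chromosome 37, at 28667584 to 28667864. It ran from 10.1 through a median of 13.3 to 18.7 CPM in lymphoma and from 0.127 through 0.979 to 1.70 CPM in control libraries, without overlap, at a level close to that of the X genes. Its log2 fold change was 3.87 (SE 0.41, adjusted p = 0.000103 in the edgeR test). The fourth and the fifth were multi-exon genes on chromosome 10 at 63533171 (r = 0.878) and on chromosome 3 at 35347064 (r = 0.877). All 5 were higher in lymphoma with no overlap of CPM, with log2 fold changes from 1.26 to 3.98 and calls that held in each of 14 runs with 1 library left out. Within the libraries with 5-digit numbers 4 of the 5 were called and the chromosome 10 gene was not (log2 fold change 1.22, edgeR adjusted p = 0.13). An r over both groups follows in large part from the difference between the groups.

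With each group's mean subtracted, likeness fell and other genes came first. The highest r with the summed level was 0.802, for a multi-exon gene at 55802014 to 55852540 of chromosome 9. It was itself lower in lymphoma (log2 fold change -1.09, SE 0.28, edgeR adjusted p = 0.0182). Its levels ran from 6.30 through 8.73 to 15.1 CPM in lymphoma and from 15.4 through 21.1 to 41.9 CPM in control libraries. Within the libraries with 5-digit numbers its log2 fold change was -0.88 and did not pass (adjusted p = 0.396 in edgeR). The next 4, with r from 0.742 to 0.759, were multi-exon genes on chromosomes 20, 33, 2 and 20 that did not pass the test. No gene of the first list was in the second. The highest r of so many genes can be large by chance, and that level was not computed.

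The number of other genes with a high r within groups varied among the 6. With group means subtracted, 16 other genes had r over 0.8 with the chromosome 24 gene, with a highest r of 0.899. The third chromosome 8 gene and the first X gene had 2 and 1 such genes, and the remaining 3 had 0. These come from a search of 12830 genes over 14 libraries. How many such genes, or how high an r, chance alone would give was not computed, so no difference among the 6 is read from them.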

How the data were processed

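Whole blood RNA of 14 dogs was sequenced. The authors deposited raw counts of read pairs per gene, made with featureCounts 2.0.1 on exons of the Ensembl release 103 annotation of CanFam3.1, per the file headers. The header sets no option for strand, for reads mapping to several places or for overlapping genes, and featureCounts by default leaves reads that map to several places uncounted, so counts of near-identical copies are uncertain. HISAT2 2.2.1, Subread 2.0.1 and DESeq2 are named in the submitters' processing notes. Gene lengths are as deposited.

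The fit used edgeR 4.0.16 in R 4.3.3 (quasi-likelihood F test) on all 14 libraries, with TMM scaling, the filterByExpr filter and no term beside group. P-values were adjusted by Benjamini-Hochberg over the 12836 tested genes, with a threshold of 0.05. SEs were derived from the fold change and its F value. Log2 CPM used a prior count of 2, except for the summed level of the 6 genes in its difference between groups, which used none. Python 3.11.15, numpy 2.4.6, scipy 1.17.1, pandas 2.3.3 and matplotlib 3.10.9 were used for the rest, and the procedures were tested on simulated data. Values without control replicate 2 were chosen after the data were seen. Alternatives covered scaling, filters, DESeq2 1.42.0, prior counts, denominators, list width and subsets of libraries.

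The members and lists were chosen with earlier results of these data known. Named genes were the members, their nearest tested neighbours and spanning genes, the 5 most alike by r with and without group means subtracted, and genes of the members' size, the 6 most abundant and those called with a log2 fold change of at least 1 (at most 8). Lists of cell type and signal recognition particle genes were not tested, because 0 identifiers could be paired with symbols, so the blood label was not checked against markers.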

Additional observations from a re-analysis of the deposited data

Results flagged for a closer look

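In 18 groups of 7 libraries (each gene, the summed share, the leading share and the ratio of the third to the second chromosome 8 gene, in each group) 5 had a highest library set off from the other 6. The rate taken for chance alone, about 1 group in 20, here 0.9, was not checked for skewed values such as CPM. Several groups also rest on the same counts, so whether 5 is more than chance gives was not tested. The value given for each is the distance to the next library as a part of the whole range in that group. Control replicate 2 was highest in the gene starting at 26412228 (0.683), in the gene starting at 26422921 (0.98) and in the share of counts on the 6 genes (0.967), 3 values that rest on the same counts. Its level of the gene starting at 26422921 was 2501 CPM, where the other 6 control libraries had at most 67.2 CPM. In the first chromosome 8 gene it lay at 49.4 CPM, beside 44.5 and 51.5 CPM in replicates 1 and 3, and so did not stand apart.

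Lymphoma replicate 2 was highest in the first chromosome 8 gene (0.641), at 522 CPM, and in the second X gene (0.653), at 38.3 CPM. It also had the highest share of counts on the 6 genes, 7.78%, and the smallest number of genes with a count after thinning, 14733.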

How the results depend on the processing

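The labels number the dogs of both groups 1 to 7 and name no pairing. Deviations of same-numbered libraries had r from -0.337 to 0.345, over 0.1 in 1 of 7 pairs. Only 1 of 7 lymphoma libraries was closest to its own number. These values show no sign of a pairing, but without a test they cannot exclude one. With the replicate block 725 genes were called in place of 2132 (440 higher and 285 lower), and the log2 fold changes of the first and the third chromosome 8 genes were 4.59 and 7.86 in place of 3.94 and 5.89. A block cannot move the difference of group means of the summed 6 genes, 6.80. Within the 5-digit libraries 104 were called. With upper-quartile factors 985 were called higher and 1181 lower, and without a filter on low counts 869 and 1133, where TMM factors with the filter gave 1182 and 950. Of the other genes of the members' size 9 were called, 14 with DESeq2 and 1 within the 5-digit libraries. The log2 fold of the summed genes was 6.80, and 4.92 without the 3 chromosome 8 genes. With TMM library sizes 1 pair of genes was correlated, and 0 on the total counts.

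With 1 library left out, 1436 to 2516 genes and 7 to 10 genes of the members' size were called. The log2 fold of the summed genes ran from 6.49 to 7.46. The leading share ran from 64.3 to 67.4% in lymphoma and from 53.9 to 61.4% in control libraries. The correlated pairs and library measures numbered 0 throughout. In the group that lost a library fewer pairings remained and only a very strong relation could pass, so nothing is read from these counts of 0. Counts of 0 to 6 limit the first X gene in control blood.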
